A study of Mus musculus with 6 samples.

Results

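The genes examined here carry ions, water and calcium across the membranes of the saliva-forming epithelium. They were 37 genes chosen by name: aquaporins, chloride, potassium, bicarbonate and sodium transporters with the carbonic anhydrases that feed them, and the channels and pumps of calcium release and entry. On the array 33 of the 37 had a probe set under their symbol, out of 19505 named genes, and each of the 33 had a single probe set. Kcnma1, Slc4a7, Itpr1 and Itpr3 had no probe set under that symbol and are not analysed here. Total RNA of submandibular glands came from 6 female mice aged 10 weeks, 3 labelled NOD.B6-Myd88+/+ and 3 labelled NOD.B6-Myd88-/-, with 1 Clariom S array per mouse. All 6 share the NOD.B6 label. NOD mice are known for autoimmune infiltration of the salivary glands, and Myd88 links most Toll-like receptors and the interleukin-1 receptor family to their signalling kinases. The labels do not say which part of Myd88 is missing in the Myd88-/- mice or which strain the chromosome around it comes from.

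Saliva is formed in a pair of steps. Acinar cells take up chloride across the basolateral membrane with the cotransporter Slc12a2, and a rise of cytosolic calcium, released through inositol trisphosphate receptors and sustained by the Stim and Orai proteins, opens the apical chloride channel Ano1 and basolateral potassium channels such as Kcnn4, after which sodium and water follow, water largely through Aqp5. Ducts then take back sodium and chloride and adjust potassium and bicarbonate, with carbonic anhydrases supplying bicarbonate and protons to exchangers of the Slc4, Slc9 and Slc26 families.

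Values are on the log2 scale of RMA, the robust multi-array average, and a difference of 1 is a 2-fold change. Array medians were 6.0 to 6.10, and correlations across probe sets were 0.982 to 0.991 over the 15 array pairs. The distance between the 10th and 90th percentiles of an array was 7.10 to 7.30 in Myd88+/+ arrays and 6.95, 7.13 and 6.83 in Myd88-/- replicates 1, 2 and 3. Positive control probe sets ranked above negative ones in 79.5% to 80.6% of pairs in Myd88+/+ arrays, and in 78.5%, 80.5% and 78.0% in Myd88-/- replicates 1, 2 and 3. The Myd88 probe set read 7.81, 7.86 and 7.53 in Myd88+/+ and 7.33, 6.80 and 7.47 in Myd88-/- glands, a difference that did not pass (limma adjusted p = 0.462), and the labels do not place it relative to the deleted part. Gland markers were present: 7 of 8 measured acinar markers, 6 of 6 of the granular ducts and 9 of 10 of ducts lay above the background control median of 5.55 on every array, against 1 of 11 of skeletal muscle. Myd88+/+ replicate 3 stood apart in Dcpp3, a secreted demilune cell and parotid protein, which read 14.91 there and 4.65 to 6.59 in the other 5 glands. It also had the highest scores of macrophage, T cell and B cell markers (1.20, 1.08 and 0.67), a score being the mean log2 deviation of a list's markers from their means over the 6 arrays. Of the 8 measured markers of B and plasma cells, 5 were under background on every array. In whole glands, fewer cells of a type and less RNA per cell cannot be told apart.

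No transport gene passed limma's test between the genotypes. After Benjamini-Hochberg adjustment over 22206 probe sets, 0 of 33 members and 0 probe sets in all (0%) had an adjusted p under 0.05, and the smallest among the members was 0.388, for Car12. At an unadjusted p under 0.05, limma counted 3 members lower in Myd88-/- glands, Car12, Stim2 and Stim1, the last under background on every array, which is 9.09% of 33 against 5.55% of all probe sets. It counted 1 higher, Car2, 3.03% against 4.50%. The genotypes did not overlap in 3 members that were lower, Car12, Stim2 and Atp1b3 (9.09% against 7.25% of all probe sets), and in 0 that were higher (against 7.84%). The count of lower members at an unadjusted p under 0.05 was 1 without Myd88+/+ replicate 1 or Myd88-/- replicate 1 and 5 without Myd88-/- replicate 2. That of higher members was 0 without Myd88+/+ replicate 1, Myd88+/+ replicate 2 or Myd88-/- replicate 1, and 2 without Myd88+/+ replicate 3 or Myd88-/- replicate 2. With fewer arrays to separate, lower members that did not overlap numbered 6 and 8 without Myd88+/+ replicates 1 and 3 and 7 and 5 without Myd88-/- replicates 2 and 3, and higher ones 1 to 3. For counts without 1 mouse, the share over all probe sets was not computed, so they cannot be set against the shares above. Without moderation of variances, 0 members reached an unadjusted p under 0.05 in either direction.

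Most differences in the set were small. The median difference over the 33 members was -0.05, against 0.02 over all probe sets, with 20 members lower and 13 higher (60.6% lower against 47.5%). Brighter probe sets in general had lower medians. Without the dimmest 30% of probe sets, the median was -0.03 over all that were left and -0.07 over the 28 members left. Without the dimmest 50%, it was -0.07 over all that were left and -0.11 over the 21 members left. Of the 22 members whose group means both lay above the background control median, 18 had a 95% interval within 1 log2 unit either way, so that a 2-fold difference of the array values lay outside it. The exceptions were Car12, Car2, Car4 and Kcnq1. In 10 members every array lay under that median: Aqp3, Aqp4, Aqp8, Clcn2, Slc4a4, Slc26a4, Orai1, Stim1, Trpc1 and Trpv4. RMA compresses differences near background, so small differences in those 10 say little about the transcript.

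Most markers of macrophages, T cells and acinar cells had lower means in the Myd88-/- glands, as in several other cell types. Lower means were also found in 7 of 8 myoepithelial and basal markers, 7 of 9 endothelial and 6 of 10 duct markers. The same held for 5 of 8 B and plasma cell, 3 of 4 Schwann and nerve and 4 of 5 lymph node stroma markers. In these lists 5 of 8, 1 of 4 and 4 of 5 markers were under background on every array, so their direction says little. Of the rest, 3 of 6 granular duct, 3 of 7 adipocyte, 1 of 11 skeletal muscle and 0 of 3 erythroid markers were lower. Macrophage markers were lower in 9 of 9 measured. They did not overlap between genotypes in 6, against 7.25% of all probe sets lower without overlap. Their scores were 0.12, 0.44 and 1.20 in Myd88+/+ and -0.47, -0.58 and -0.72 in Myd88-/- replicates 1, 2 and 3. Their summed level in log2 was 11.85 to 13.46 in Myd88+/+ and 10.88 to 11.22 in Myd88-/- glands, and 8 of the 9 were above background on every array. T cell markers were lower in 8 of 8 measured, with 1 not overlapping, scores of -0.27, 0.16 and 1.08 against -0.34, -0.50 and -0.13, and summed levels of 9.29 to 10.58 against 8.96 to 9.53. Only 3 of the 8 T cell markers were above background on every array, and Cd8b1 was under it on every array. Acinar markers were lower in 6 of 8, with 0 not overlapping and scores of 0.06, 0.09 and 0.78 against -0.32, -0.36 and -0.26. Their summed level was 21.78 to 21.84 in Myd88+/+ and 21.80 to 21.82 in Myd88-/- glands. Markers near the ceiling of the scale, 19.93, dominate that sum, and differences can be compressed there, so the sums cannot show equal acinar levels. Dcpp3 is 1 of these 8 and read 14.91 in Myd88+/+ replicate 3 against 4.65 to 6.59 in the other glands. The score of 0.78 includes that value, which also lowers the scores of the other glands through the mean over the arrays. Scores without Dcpp3 were not computed, so these scores do not show a difference of the acinar list as a whole. No marker passed limma's test after adjustment over all probe sets, and the part of these cell types in the differences of the transport genes was not tested.

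**Figure D1:**
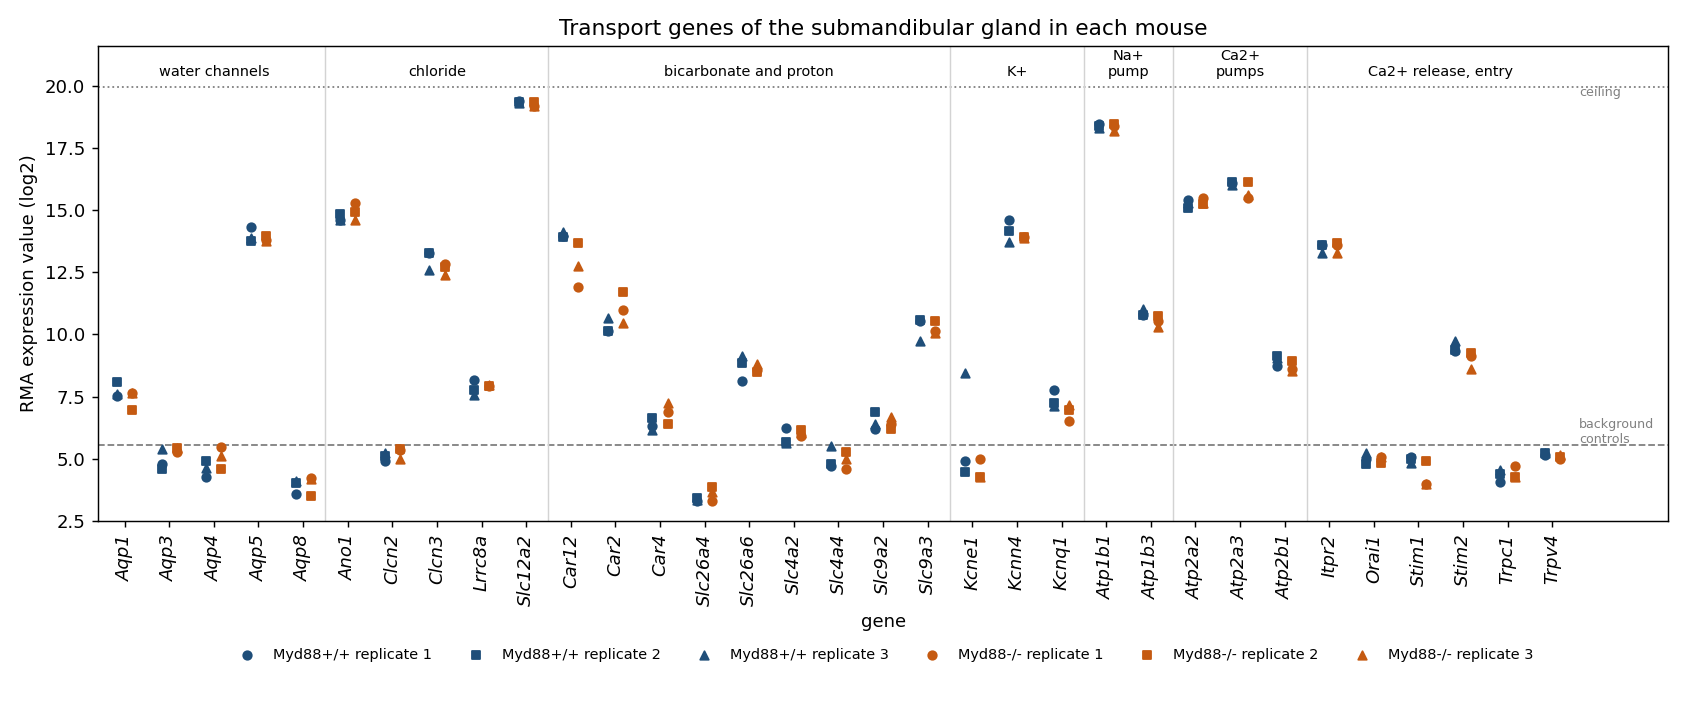
RMA expression values (log2, vertical axis) of the 33 transport genes (horizontal axis, grouped by role) in each of 6 mice; blue is Myd88+/+, orange Myd88-/-, and marker shapes are replicates. The dashed line is the background control median of 5.55, under which 10 genes lie on every array, and the dotted line is the ceiling of 19.93; heights are not comparable between genes.

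**Figure D2:**
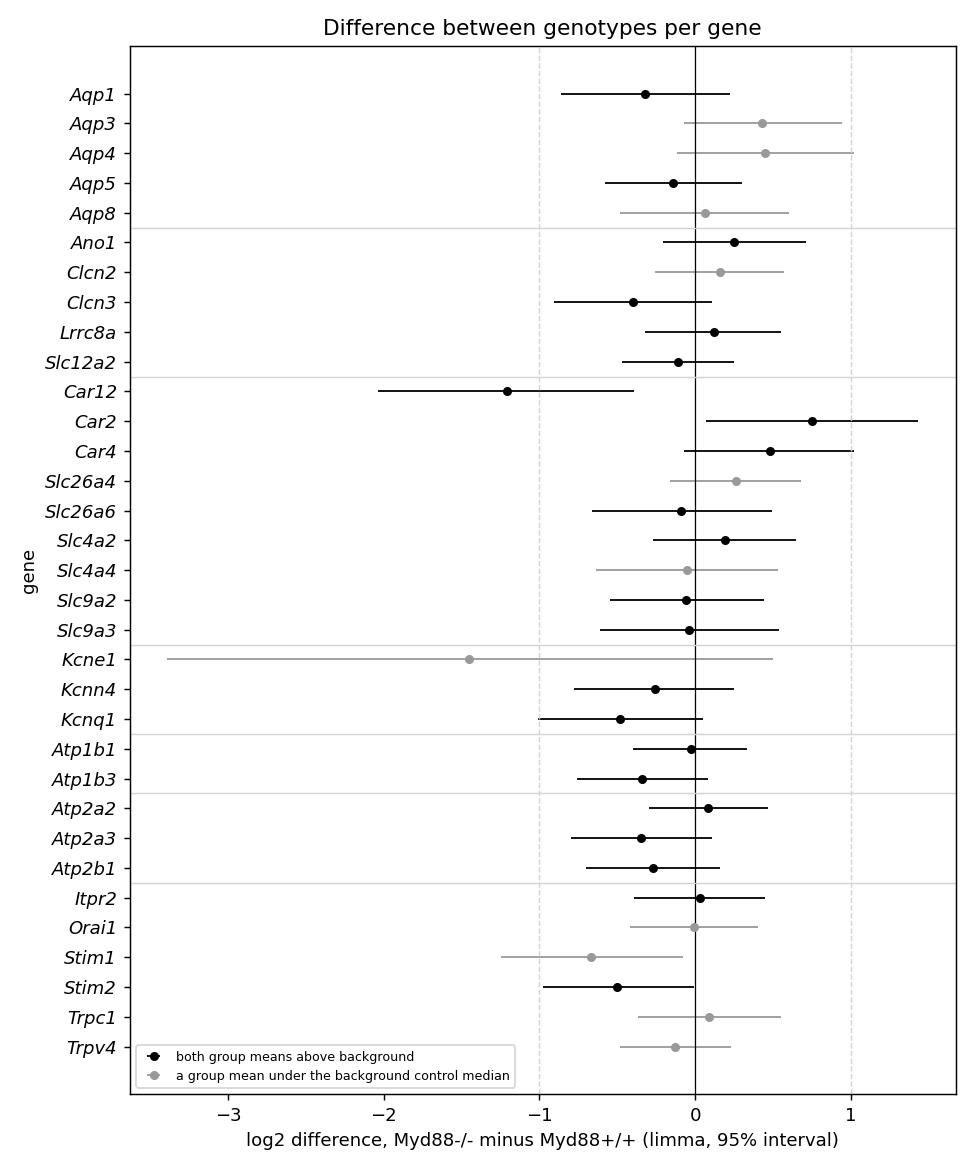
Log2 difference between genotypes (Myd88-/- minus Myd88+/+, horizontal axis) with limma's 95% interval for each gene, grouped by role; grey marks genes where either genotype averages below the background controls, and dashed lines stand at a 2-fold difference. The intervals of Car12, Stim1 and Stim2 lie below 0 and that of Car2 above 0, without adjustment for the number of genes.

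Water channels showed no difference that passed. Aqp5, the apical water channel of acinar cells, read 14.32, 13.74 and 13.88 in Myd88+/+ and 13.80, 13.95 and 13.76 in Myd88-/- glands. The genotypes overlapped, with Myd88+/+ replicate 1 highest, and the difference was -0.14 with a 95% interval of -0.58 to 0.30 (limma adjusted p = 0.837). Aqp1, found in endothelium, red cells and myoepithelium of many tissues, averaged 7.74 ± 0.30 across Myd88+/+ and 7.42 ± 0.38 across Myd88-/- mice (SD, n = 3 each). Its lowest value, 6.97, was that of Myd88-/- replicate 2, without which the difference of -0.32 was -0.10. Aqp3, a basolateral channel that also passes glycerol, Aqp4, a channel of astrocytes and muscle, and Aqp8 were under background on every array, with differences of 0.43, 0.45 and 0.06.

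Chloride transport genes likewise showed no difference that passed. Slc12a2, which brings chloride into the acinar cell with sodium and potassium, read 19.40, 19.33 and 19.29 in Myd88+/+ and 19.17, 19.34 and 19.18 in Myd88-/- glands. These values lie on average 0.65 log2 units under the ceiling of the scale, 19.93, where a difference can be compressed, and the interval of the difference ran from -0.47 to 0.25. Ano1, the calcium-activated chloride channel of the apical membrane, read 14.61, 14.84 and 14.62 in Myd88+/+ and 15.29, 14.91 and 14.62 in Myd88-/- glands. Only Myd88-/- replicate 1 stood clearly above the Myd88+/+ range, and the difference of 0.25 was 0.07 without it. Clcn3, an intracellular chloride-proton exchanger, had a difference of -0.40 (interval -0.91 to 0.11), and its values overlapped, since Myd88+/+ replicate 3 read 12.61 against 13.27 and 13.28 in its group. Lrrc8a, the required subunit of volume-regulated anion channels, differed by 0.12 and Clcn2, an inwardly rectifying chloride channel under background here, by 0.16.

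Among the 22 members with both means above background, carbonic anhydrases had the widest difference in each direction, Car12 lower and Car2 higher in Myd88-/- glands. Car12, a membrane-bound carbonic anhydrase with an extracellular active site, read 13.94, 13.91 and 14.11 in Myd88+/+ and 11.92, 13.66 and 12.74 in Myd88-/- glands. All 3 Myd88-/- values lay under the lowest Myd88+/+ value, by a gap of 0.25, and the Myd88-/- glands ranged widely, with an SD of 0.87 against 0.11. The difference was -1.21 with a standard error (SE) of 0.37 and an interval of -2.04 to -0.39, a 2.32-fold lower level that did not pass (limma adjusted p = 0.388). Its size rested on the mice left in, at -0.79 without Myd88-/- replicate 1 and -1.66 without replicate 2 of that genotype. Over the settings tried, limma's adjusted p ran from 0.16 to 0.684.

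The 2 Myd88-/- arrays with the lowest Car12 values, replicates 1 and 3, also had the narrowest signal spans, 6.95 and 6.83. After quantile normalization, which gives all arrays one distribution of values, the Car12 difference was -1.12. The score of the duct markers was 0.32, 0.02 and -0.06 in Myd88+/+ and -0.20, 0.09 and -0.16 in Myd88-/- replicates 1, 2 and 3, all 10 of 10 markers being measured. Their summed level, in log2, ran from 16.93 to 17.40 in Myd88+/+ and from 16.97 to 17.36 in Myd88-/- glands, and 0 of the 10 were under background on every array. Of the 10, 6 were lower in Myd88-/- glands and 3 did not overlap (over all probe sets, 7.25% lower and 7.84% higher). Myoepithelial and basal markers, 8 of 8 measured, scored 0.17, -0.01 and 0.52 in Myd88+/+ and -0.48, 0.14 and -0.34 in Myd88-/- glands, with summed levels of 13.69 to 14.40 and 12.90 to 13.76. Of the 8, 7 were lower in Myd88-/- glands and 1 did not overlap. The part of either cell type in the Car12 values was not tested.

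The stretches upstream of 3 transport genes are given for reference, Car12 and Stim2 as 2 of the 3 members whose genotypes did not overlap and Aqp5 as the gland's main water channel. Atp1b3, the other member without overlap, with a gap of 0.02, is not shown. They are the 250 bases before each gene's start, 5′ to 3′, from RefSeq in build GRCm38.p6, where 29 of the 37 genes had an entry. Capitals mark matches, on either strand, to the GC box GGGCGG or the CCAAT box CCAAT.
Car12, chr9:66713436-66713685, plus strand: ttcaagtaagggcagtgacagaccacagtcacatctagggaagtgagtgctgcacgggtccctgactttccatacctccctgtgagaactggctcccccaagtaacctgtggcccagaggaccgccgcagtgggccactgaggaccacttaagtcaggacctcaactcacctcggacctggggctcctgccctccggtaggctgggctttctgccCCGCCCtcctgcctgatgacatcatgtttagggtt
Stim2, chr5:53998273-53998522, plus strand: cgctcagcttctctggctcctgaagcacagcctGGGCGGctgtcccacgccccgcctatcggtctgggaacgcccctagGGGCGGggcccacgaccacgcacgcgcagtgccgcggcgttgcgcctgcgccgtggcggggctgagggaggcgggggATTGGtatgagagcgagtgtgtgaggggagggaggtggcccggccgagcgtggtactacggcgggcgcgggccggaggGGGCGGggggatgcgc
Aqp5, chr15:99590778-99591027, plus strand: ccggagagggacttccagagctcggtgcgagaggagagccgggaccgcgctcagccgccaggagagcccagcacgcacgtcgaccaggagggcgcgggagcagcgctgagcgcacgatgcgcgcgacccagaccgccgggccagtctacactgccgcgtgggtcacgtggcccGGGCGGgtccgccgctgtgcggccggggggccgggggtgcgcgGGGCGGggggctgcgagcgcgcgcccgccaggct
Car12 held 1 GC box, Stim2 3 GC boxes and 1 CCAAT box, and Aqp5 2 GC boxes. Of 32851 such windows over all genes, 32.7% held the GC box and 33.8% the CCAAT box. TATAAA, present in 12.4% of windows, and the NF-kB motif, present in 3.9%, were not among the letters of these 3 windows. No measurement of these arrays bears on binding at these windows.

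Car2, a cytosolic carbonic anhydrase of ducts and of red cells, read 10.12, 10.13 and 10.65 in Myd88+/+ and 10.98, 11.71 and 10.47 in Myd88-/- glands. The genotypes overlapped, since Myd88-/- replicate 3 lay under Myd88+/+ replicate 3. The difference was 0.75 (interval 0.07 to 1.43), a 1.68-fold higher level that did not pass (limma adjusted p = 0.464), and it was 0.42 without Myd88-/- replicate 2. Erythroid markers, 3 of 9 of which were measured, scored -0.19, -0.08 and -0.43 in Myd88+/+ and 0.32, 0.13 and 0.26 in Myd88-/- glands. Their summed level, in log2, was 8.58 to 8.98 and 9.25 to 9.51, with Epb42 under background on every array and no globin gene among the 3. All Myd88-/- erythroid scores lay above all Myd88+/+ ones. Taken singly, 1 of the 3 markers did not overlap, Slc4a1 with a gap of 0.04 (over all probe sets, 7.84% higher), while Alas2 and Epb42 overlapped. Within the Myd88-/- group, replicate 2 had the highest Car2 value and the lowest erythroid score. The part of red cells in the Car2 values was not tested. Car4, a carbonic anhydrase anchored to the outer membrane, averaged 6.37 ± 0.25 in the Myd88+/+ and 6.85 ± 0.42 in the Myd88-/- group (SD, n = 3 each), and the difference of 0.48 did not pass (limma adjusted p = 0.552).

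Exchangers of bicarbonate and protons had differences near 0. Over the 9 measured genes of bicarbonate and proton transport, carbonic anhydrases included, the median difference was -0.04. Slc9a3, the sodium-proton exchanger of the apical duct membrane, read 10.56, 10.57 and 9.75 in Myd88+/+ and 10.15, 10.54 and 10.07 in Myd88-/- glands, with an interval of -0.61 to 0.54. Here too Myd88+/+ replicate 3 lay lowest, and the difference of -0.04 became 0.09 after quantile normalization. Slc26a6, an apical anion exchanger for chloride, bicarbonate and oxalate, averaged 8.70 ± 0.51 and 8.62 ± 0.17 in Myd88+/+ and Myd88-/- mice (SD, n = 3 each), and its difference of -0.09 became 0.04 after quantile normalization and -0.37 without Myd88+/+ replicate 1. Slc9a2, another sodium-proton exchanger, and Slc4a2, the basolateral chloride-bicarbonate exchanger, differed by -0.06 and 0.19. The sodium-bicarbonate cotransporter Slc4a4 and the anion exchanger Slc26a4 were under background, with differences of -0.05 and 0.26.

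Potassium channels had lower means in Myd88-/- glands in all 3 measured genes, and none passed. Kcne1, a small subunit that slows the opening of Kcnq1 channels, read 4.91, 4.48 and 8.47 in Myd88+/+ and 5.01, 4.25 and 4.25 in Myd88-/- glands. A single gland, Myd88+/+ replicate 3, was above background, and it exceeded the highest of the other 5 by 3.45 log2 units. Only 15 of 22206 probe sets had at least that gap in this gland, Kcne1 and Dcpp3 among them, and the part of cells that express Dcpp3 in the Kcne1 value was not tested. The mean difference of Kcne1, -1.45 (interval -3.39 to 0.50, limma adjusted p = 0.606), was -0.19 without this mouse, so the difference rests on that gland.

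Its partner Kcnq1 did not follow it in that mouse. Kcnq1, a voltage-gated potassium channel, read 7.76, 7.24 and 7.13 in Myd88+/+ and 6.52, 6.98 and 7.18 in Myd88-/- glands, and in its group Myd88+/+ replicate 3 was lowest. The difference of -0.48 (interval -1.01 to 0.05, limma adjusted p = 0.542) was -0.29 without Myd88+/+ replicate 1 and also without Myd88-/- replicate 1. Kcnn4, the calcium-activated potassium channel that keeps the acinar cell polarised during secretion, read 14.61, 14.15 and 13.72 in Myd88+/+ and 13.93, 13.90 and 13.86 in Myd88-/- glands. The Myd88-/- glands had an SD of 0.03 and lay inside the wider Myd88+/+ range, and the difference of -0.26 was -0.04 without Myd88+/+ replicate 1.

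The sodium pump, whose gradient drives chloride uptake and duct reabsorption, was represented by its beta subunits. Atp1b1, which brings the catalytic subunit to the membrane, averaged 18.38 ± 0.09 and 18.34 ± 0.13 in Myd88+/+ and Myd88-/- mice (SD, n = 3 each), with an interval of -0.40 to 0.33. Atp1b3, a beta isoform, read 10.77, 10.79 and 11.04 in Myd88+/+ and 10.55, 10.76 and 10.28 in Myd88-/- glands. The genotypes did not overlap, though the gap was only 0.02, and the difference of -0.34 (interval -0.76 to 0.08) did not pass (limma adjusted p = 0.574). After quantile normalization and after cyclic loess it was -0.22 and -0.23.

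Calcium pumps showed no difference that passed, though in Atp2a3 the Myd88-/- mice lay apart from each other. Atp2a3, a pump that refills the endoplasmic reticulum, read 16.07, 16.13 and 16.02 in Myd88+/+ and 15.47, 16.12 and 15.59 in Myd88-/- glands. Myd88-/- replicates 1 and 3 lay under all Myd88+/+ values and replicate 2 among them, so the difference of -0.35 (interval -0.80 to 0.11) was -0.22 without replicate 1 and -0.55 without replicate 2. Atp2a2, the widely expressed pump of the same store, averaged 15.25 ± 0.16 in the Myd88+/+ and 15.34 ± 0.12 in the Myd88-/- group (SD, n = 3 each), 0.08 apart. Atp2b1, which exports calcium across the plasma membrane, differed by -0.27 (interval -0.70 to 0.16).

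Stim2, a sensor of store calcium that responds to small losses, read 9.35, 9.39 and 9.73 in Myd88+/+ and 9.13, 9.24 and 8.60 in Myd88-/- glands. No value overlapped, with a gap of 0.10, and Myd88-/- replicate 3 lay lowest. The difference was -0.50 (SE 0.22, interval -0.98 to -0.01), a 1.41-fold lower level that did not pass (limma adjusted p = 0.486), and it was -0.37 after quantile normalization and -0.30 without Myd88-/- replicate 3. Stim1, the sensor that opens Orai1 on store depletion, read 5.06, 4.99 and 4.85 in Myd88+/+ and 3.99, 4.93 and 3.97 in Myd88-/- glands. As with Atp2a3, Myd88-/- replicates 1 and 3 were low and replicate 2 lay within the Myd88+/+ range, and all 6 values were under the background control median. Its difference of -0.67 (interval -1.25 to -0.08, limma adjusted p = 0.457) was -0.98 without Myd88-/- replicate 2.

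The remaining genes of calcium release and entry did not separate the genotypes. Itpr2, an inositol trisphosphate receptor of the acinar cell's calcium store, read 13.60, 13.59 and 13.28 in Myd88+/+ and 13.60, 13.68 and 13.28 in Myd88-/- glands. Each genotype thus had its replicate 3 lowest, and the interval of the difference was -0.39 to 0.45. Orai1, the pore of store-operated calcium entry, Trpc1, a cation channel linked to the same entry, and Trpv4, a channel that opens on cell swelling, were under background on every array, with differences of -0.01, 0.09 and -0.13.

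**Figure D3:**
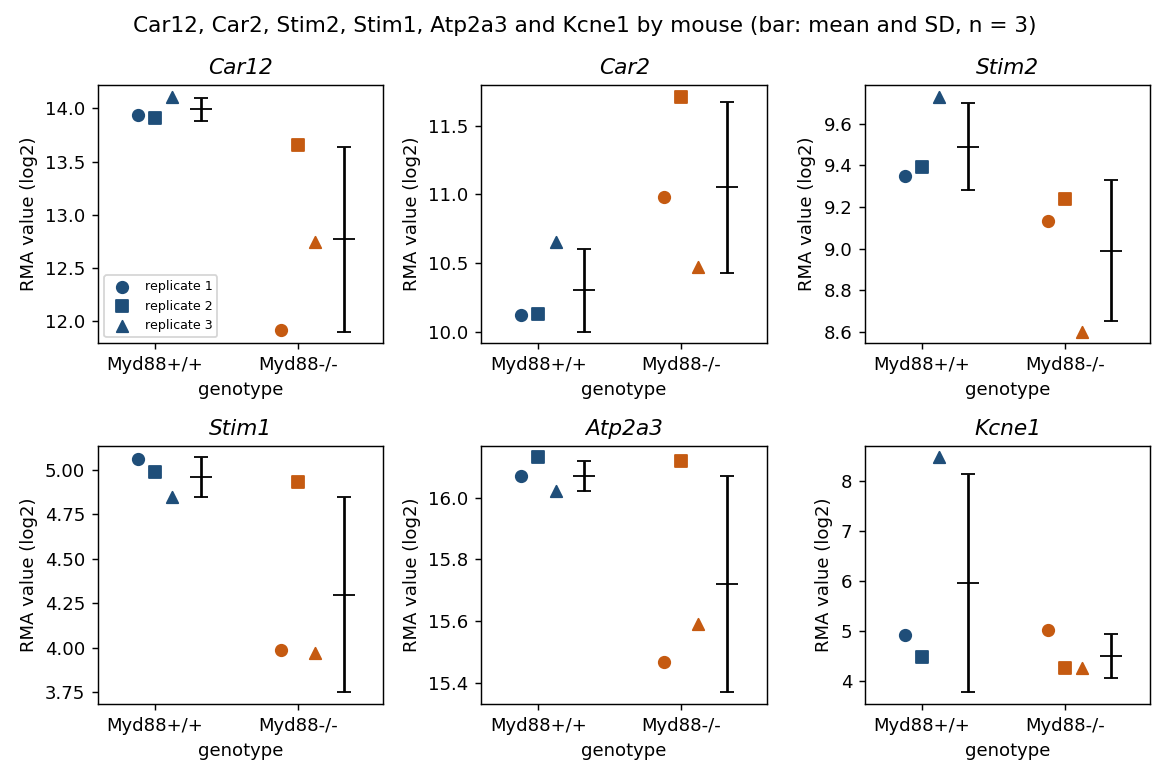
RMA values (log2, vertical axis, a different range in each panel) of 6 transport genes by genotype, with replicates 1, 2 and 3 as circles, squares and triangles and the bar as mean and SD (n = 3). Myd88-/- replicate 2 lies nearest the Myd88+/+ glands in Car12, Stim1 and Atp2a3, and Kcne1 is above 8 in Myd88+/+ replicate 3 alone. Over all 20 lower members, the value nearest the Myd88+/+ mean was that of Myd88-/- replicate 1 in 7, replicate 2 in 8 and replicate 3 in 5.

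**Figure D4:**
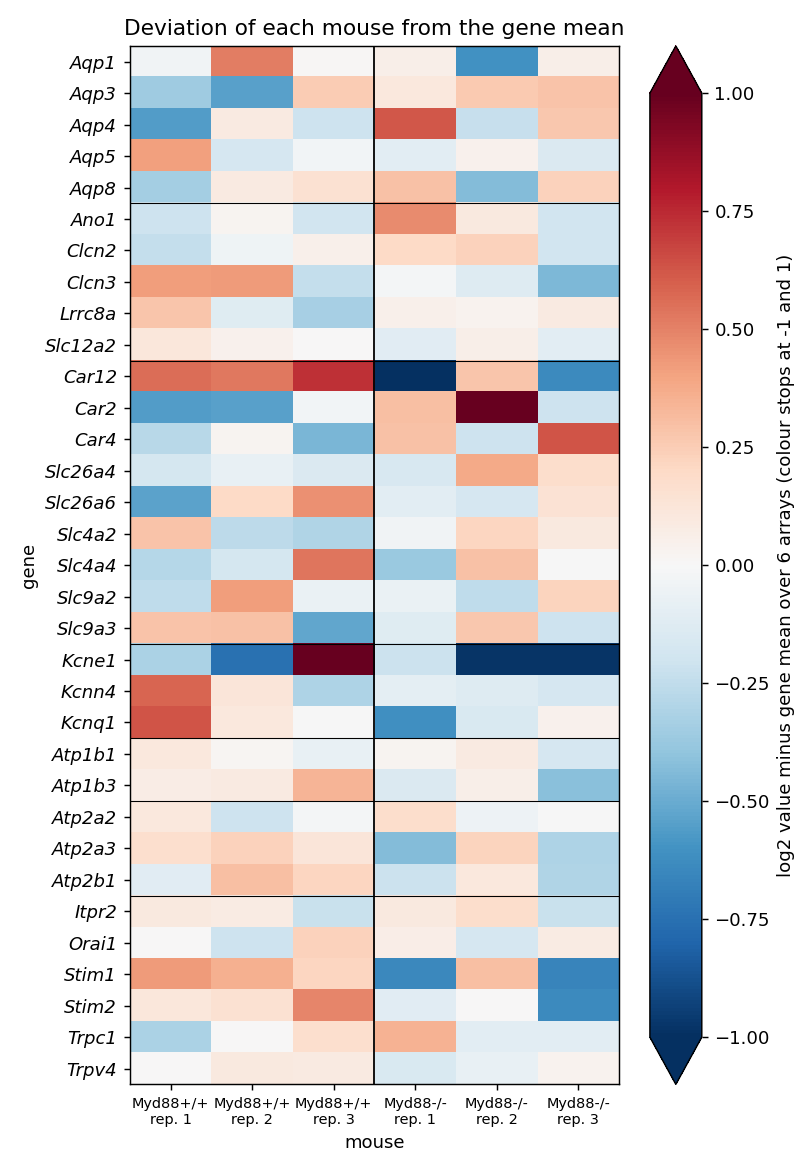
Log2 value of each mouse (columns) minus the gene's mean over 6 arrays, for 33 transport genes (vertical axis) grouped by role; red is above and blue below the mean, and the colour stops at 1 and -1, which Kcne1, Car12 and Car2 exceed. The mean deviation over all members lies between -0.11 (Myd88-/- replicate 3) and 0.13 (Myd88+/+ replicate 3).

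Taken over the whole set, the mice differed little. The mean deviation over the 33 members was 0.00, 0.03 and 0.13 in Myd88+/+ and -0.06, 0.01 and -0.11 in Myd88-/- replicates 1, 2 and 3. Among the 20 lower members, Myd88-/- replicate 3 held the lowest value of its group in 10, replicate 1 in 6 and replicate 2 in 4. The spread between mice was similar in the genotypes, with a median SD over members of 0.25 in Myd88+/+ and 0.24 in Myd88-/- glands, against 0.21 and 0.23 over all probe sets. Car12, Trpc1, Atp1b3 and Slc26a6 lie on chromosome 9 with Myd88. In the RefSeq gene table of GRCm38.p6, 108 protein-coding genes start between Slc26a6, the nearest of these, and Myd88, and 445 between Car12 and Myd88.

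Other genes of the same transport pathway, from lists of relatives and regulators, also gave no call. Of 104 listed, 93 were measured, 44 lower and 49 higher, with a median difference of 0.01. None passed limma's adjusted test (0 of 93), and at an unadjusted p under 0.05 there were 6 lower and 6 higher, 6.45% each, against 5.55% and 4.50% of all probe sets. The named ones below had the smallest p of their list.

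Fxyd3, a small regulator of the sodium pump, was the gene of these lists nearest to the threshold. It read 11.97, 12.46 and 12.16 in Myd88+/+ and 11.18, 11.44 and 11.37 in Myd88-/- glands. The genotypes did not overlap, with a gap of 0.54, and the difference was -0.87 (SE 0.19, limma adjusted p = 0.321). Over the 6 measured pump relatives the median was -0.37, with Atp1b2, another beta subunit, at -0.61 and Fxyd7 at 0.40, both under background on every array.

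Among bicarbonate and proton transporters, 10 of 25 were lower and 15 higher. Slc4a1, the anion exchanger of red cells, read 7.87, 8.40 and 8.02 in Myd88+/+ and 8.92, 8.44 and 8.96 in Myd88-/- glands, a difference of 0.68 with a gap of 0.04 between the genotypes. It is also 1 of the 3 measured erythroid markers. Slc4a11, a proton and water transporter of epithelia, differed by -0.72, from 11.67 to 10.95, and Slc4a3, under background on every array, by 0.56 (4.39 and 4.95).

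Lrrc26, the gamma subunit that lets the large-conductance potassium channel open near resting voltage, read 15.70, 15.71 and 14.72 in Myd88+/+ and 14.72, 15.01 and 14.62 in Myd88-/- glands. Myd88+/+ replicate 3 lay with the Myd88-/- glands, and the difference was -0.59 (limma adjusted p = 0.514). Of the 16 measured potassium channel relatives 9 were lower, and Kcnmb1 had -0.31. Kcne2 had 0.58, with both group means under background (4.58 and 5.16) and only Myd88-/- replicate 3, at 5.75, above it.

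Of 23 chloride channels and regulators, 12 were lower and 11 higher, with Lrrc8c, Wnk4 and Slc12a3 at -0.53, 0.54 and 0.55. Lrrc8c and Wnk4 were under background on every array, and the Myd88+/+ mean of Slc12a3 was under it. Differences of the 6 further aquaporins ran from 0.01 to 0.36, with Aqp9, Aqp6 and Aqp7 at 0.36, 0.17 and 0.21, and 4 of the 6 had both group means under background. Calcium relatives numbered 9 lower and 8 higher. They included Atp2a1, the calcium pump of fast skeletal muscle, with 0.68 (5.15 and 5.83), Mcu, the mitochondrial calcium uniporter, with -0.86 (6.0 and 5.14), and Atp2b2 with 0.37. Atp2a1, Mcu and Atp2b2 each had 1 group mean under background. Skeletal muscle markers, 11 of 11 measured and Atp2a1 among them, had summed levels in log2 of 8.38 to 8.73 in Myd88+/+ and 8.40 to 8.75 in Myd88-/- glands, and 7 of the 11, Acta1, Myh1, Myh2, Myh4, Tnnc2, Tnni2 and Tnnt3, were under background on every array. Only 1 of the 11 was lower in Myd88-/- glands, and 3 did not overlap (over all probe sets, 7.25% lower and 7.84% higher). The muscle scores were -0.29, 0.05 and -0.02 in Myd88+/+ and 0.23, -0.03 and 0.05 in Myd88-/- replicates 1, 2 and 3. The part of muscle in the Atp2a1 difference was not tested.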

How the data were processed

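The authors deposited log2 expression values made by RMA with the Transcriptome Analysis Console, per the labels. Not given in the sources used here: the software version, the RMA variant and the annotation build. RMA subtracts background, brings arrays to a common distribution and combines each set's probes. That the scale is log2 follows from the range of the values, 2.26 to a ceiling of 19.93. Of 28846 probe sets, 6640 controls were left out of the tests, and background is the median of 23 background control probe sets, 5.55. Symbols came from the platform annotation (19572 probe sets), and a gene's probe set is the one with the highest mean. Groups came from the sample titles. The genotype comparison used lmFit and eBayes of limma 3.58.1 (R 4.3.3), with no covariates, over 22206 probe sets, with Benjamini-Hochberg adjustment, a threshold of 0.05 and 95% intervals; the fit was tested on simulated data. The samples are separate mice, and their number, 3 per genotype, limits the precision. The members and lists were chosen with earlier results of these data known. All members are named, with up to 3 genes of smallest p per further list. Dcpp3 is on the acinar marker list and was singled out after its values were seen. Alternatives were other normalizations, filters, variance models, array weights, a replicate block and leaving out each mouse.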

Additional observations from a re-analysis of the deposited data

How the results depend on the processing

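Under all 15 alternatives 0 members passed limma's adjusted test. Probe sets called lower numbered 2 after median centring, 4 with an intensity trend and robust variances and 0 to 5 when 1 mouse was left out. Members lower at an unadjusted p under 0.05 numbered 0 without moderation and 1 to 5 without 1 mouse, and higher ones 0 without moderation, 0 with the replicate block and 0 to 2 without 1 mouse. Replicate numbers did not pair the mice (correlations of deviations -0.11, -0.15 and -0.02), and the block left Car12 and Stim1 at an unadjusted p under 0.05. Without the dimmest 50% of probe sets, 21 members were left with a median of -0.11, against -0.07 over all probe sets left. The members' median was -0.10 with array weights and -0.09 to -0.03 without 1 mouse. Non-overlapping members were 3 to 8 lower and 1 to 3 higher without 1 mouse, where fewer arrays have to separate, and 1 higher after quantile normalization. The share over all probe sets was not computed under these settings. Signs turned, all near 0, after quantile normalization and cyclic loess for Aqp8 (-0.04 and -0.03), Slc9a3 (0.09 and 0.07), Slc26a6 (0.04 and 0.02) and Trpc1 (-0.01 and -0.01), and with array weights for Orai1 (0.04). Without 1 mouse they turned for Aqp5 (-0.26 to 0.03), Aqp8 (-0.09 to 0.30), Slc4a4 (-0.22 to 0.20), Slc9a2 (-0.20 to 0.14), Slc9a3 (-0.31 to 0.10), Slc26a6 (-0.37 to 0.12), Atp1b1 (-0.09 to 0.04), Itpr2 (-0.08 to 0.15), Orai1 (-0.12 to 0.10), Trpc1 (-0.06 to 0.19) and Lrrc8a (-0.02 to 0.28). The causes were not tested. Using every probe set of a member was not run, since each had a single one.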
